A study of Mus musculus with 12 samples.

Results

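Cuedc1, Glod4, Rsad1, Scpep1, Slc16a6, Slfn9, Tekt1 and Tubd1 are genes of mouse chromosome 11 that were picked because at least 1 probe set of each differed between p53 and wild-type embryos. A probe set is a group of short array probes, summarised as 1 value, that reads 1 or more transcripts. Every probe set whose single gene symbol in the platform annotation was one of these names was taken and is shown apart. That gave 14 probe sets for 8 of the 18193 genes measured. The members were selected on the p53 minus wild-type differences, so those differences are given as a description and not as a result.

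RNA of whole embryos at E10.5 was measured on 12 Affymetrix arrays, 3 for each of 4 genotypes. Double mutant embryos (double) were Acdacd/acd and p53-/-. Embryos called acd were Acdacd/acd with no p53 mutation named in the labels, embryos called p53 were p53-/- with no Acd mutation named, and wild-type embryos (wt) had neither. All 4 genotypes were taken at the same age and treated alike. The labels call the replicates biological and do not say how either allele was made, nor give the strain or the litters. The samples are whole embryos, so a level is an average over all tissues, and fewer cells of a type cannot be told apart from less RNA per cell. All 14 genes listed as markers of neural tube, heart, somite, limb and vessel were measured, with means per array between 8.90 and 9.15 on the log2 scale.

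The p53 protein is a transcription factor that responds to damaged DNA, and the gene that encodes it lies on chromosome 11. Acd encodes TPP1, a subunit of the shelterin complex that covers telomeres, so that loss of its function exposes chromosome ends. The 8 genes have unrelated roles. Tekt1 encodes a tektin, a filament protein of the axoneme of cilia and sperm tails. Tubd1 encodes delta-tubulin, which is needed for the triplet microtubules of centrioles. Rsad1 encodes a radical S-adenosylmethionine domain protein whose human counterpart has been described as a heme-binding mitochondrial protein. Glod4 encodes a protein with glyoxalase-type folds, the fold of enzymes that detoxify reactive aldehydes. Scpep1 encodes a retinoid-inducible serine carboxypeptidase, and Slc16a6 a carrier of the monocarboxylate transporter family that exports ketone bodies from the liver in zebrafish. Slfn9 belongs to the Schlafen family, many of whose members respond to interferon, and Cuedc1 encodes a protein with a CUE domain, which binds ubiquitin.

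In the RefSeq gene table of assembly GRCm38.p6 all 8 genes lie on chromosome 11 on the same side of the p53 gene. The order is Tekt1, Glod4, Slfn9, Tubd1, Cuedc1, Scpep1, Rsad1 and Slc16a6. Of the 1443 chromosome 11 genes measured, 525 come before the p53 gene. Tekt1 is separated from it by 85 measured genes and Slc16a6, the farthest, by 706. The p53 transcript itself was not analysed here.

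RefSeq gives 9 promoter windows, each from 250 bases before to 50 bases after an annotated start, for 7 of the 8 genes. Those of Cuedc1 are shown because this gene has 2 annotated starts and its probe sets disagreed, and those of Glod4 and Tubd1 because the levels of these genes were alike over the arrays. They are given 5′ to 3′ on the strand of the gene, with capitals marking CCAAT (the CCAAT box) or GGGCGG (the GC box) on either strand. Probe positions were not used here, so which annotated start each probe set reads, and whether its probes overlap sequence variants between strains, was not analysed. The Cuedc1 windows lie on the plus strand at chr11:88098896-88099195 and chr11:88169315-88169614, that of Glod4 on the minus strand at chr11:76243650-76243949, and that of Tubd1 on the plus strand at chr11:86544741-86545040.
Cuedc1, first start: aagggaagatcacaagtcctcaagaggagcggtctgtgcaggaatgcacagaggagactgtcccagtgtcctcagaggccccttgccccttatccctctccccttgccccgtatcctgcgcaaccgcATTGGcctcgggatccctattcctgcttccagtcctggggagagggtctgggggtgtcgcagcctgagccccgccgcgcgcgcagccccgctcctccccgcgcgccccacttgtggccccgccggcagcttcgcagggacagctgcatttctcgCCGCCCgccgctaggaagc
Cuedc1, second start: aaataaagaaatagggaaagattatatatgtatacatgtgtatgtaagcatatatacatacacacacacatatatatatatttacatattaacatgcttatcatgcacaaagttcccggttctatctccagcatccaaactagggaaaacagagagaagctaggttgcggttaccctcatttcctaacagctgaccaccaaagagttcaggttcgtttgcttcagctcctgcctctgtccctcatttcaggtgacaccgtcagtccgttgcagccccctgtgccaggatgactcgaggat
Glod4: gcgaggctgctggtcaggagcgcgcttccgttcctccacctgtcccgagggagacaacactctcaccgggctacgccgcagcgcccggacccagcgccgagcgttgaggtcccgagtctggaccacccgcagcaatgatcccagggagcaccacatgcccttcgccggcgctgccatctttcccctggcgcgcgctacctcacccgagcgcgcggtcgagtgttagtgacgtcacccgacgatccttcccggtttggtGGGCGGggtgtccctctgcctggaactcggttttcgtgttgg
Tubd1: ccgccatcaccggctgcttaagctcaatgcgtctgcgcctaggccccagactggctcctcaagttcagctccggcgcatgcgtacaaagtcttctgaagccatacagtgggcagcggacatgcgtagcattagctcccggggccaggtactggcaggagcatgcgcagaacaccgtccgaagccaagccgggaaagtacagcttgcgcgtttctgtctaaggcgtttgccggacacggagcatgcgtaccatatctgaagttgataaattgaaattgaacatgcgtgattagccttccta

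The windows of Cuedc1 differ in composition. The first holds 67.0% G and C with 22 CpG dinucleotides and contains a CCAAT box and a GC box, while the second holds 42.0% G and C with 6 CpG dinucleotides and contains neither. The Glod4 window holds 67.3% G and C, 33 CpG dinucleotides and 1 GC box, and the Tubd1 window holds 55.7% G and C, 21 CpG dinucleotides and none of the motifs. Over the 9 windows, CCAAT stood in 3 and GGGCGG in 4, against 37.4% and 35.7% of all 32851 windows in the table. TATAAA (the TATA box) and the p53 half-site were searched on both strands too and found in 0 of the 9, against 13.6% and 8.4% of all windows. No sequence feature shared by the genes was found among these motifs.

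Values are expression values after robust multi-array averaging (RMA) by the authors. They were taken as log2, the scale of RMA, although the log base is not named in the sources used here, so a difference of 1 is a factor of 2 and no depth or count underlies them. Double mutant replicates 1 and 2 were unlike the rest: their correlation with another array had a median of 0.986 and 0.992, where every further array reached 0.9956 or more. The 16 interferon response genes measured averaged 8.42, 8.09 and 5.05 in the 3 double arrays, 4.96 to 5.03 in acd, 4.83 to 4.96 in p53 and 4.77 to 4.83 in wt. Macrophage markers moved with them, at 7.28, 6.70 and 5.56 in double, 5.56 to 5.89 in acd, 5.55 to 5.94 in p53 and 5.72 to 5.87 in wt, with 12 of 12 measured. The 8 visceral endoderm and liver markers measured were at 8.62, 8.41 and 7.31 in double, 7.29 to 7.45 in acd, 6.98, 8.08 and 6.81 in p53 and 6.93 to 7.10 in wt. The part of these lists in the members' values was not tested. Acd, the mutated gene, read 8.44, 8.42 and 8.24 in double and 8.27, 8.31 and 8.22 in acd, against 8.84, 8.85 and 9.05 in p53 and 8.999, 8.99 and 8.99 in wt, so that both genotypes labelled homozygous for acd read lower. Sex also differed between genotypes. Y-linked genes averaged 8.07 to 8.31 in double replicate 1, all acd and all p53 embryos and wt replicate 1, and 3.26 to 3.72 in double replicates 2 and 3 and wt replicates 2 and 3.

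The means of Cuedc1 and Scpep1 were higher in each mutant genotype than in wt, and those of Glod4, Rsad1, Slfn9, Tekt1 and Tubd1 were lower. Slc16a6 was lower in p53, with double and acd embryos partly inside the wt range. For each gene this leading probe set is described first, in the order of the chromosome.

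Tekt1 (1432075_a_at) read 5.55, 5.53 and 5.52 in double embryos, 5.39, 5.54 and 5.404 in acd, 5.47, 5.63 and 5.52 in p53, and 5.93, 6.14 and 5.74 in wt. Every mutant array lay below every wt array. The means were 5.53 ± 0.02 in double, 5.44 ± 0.08 in acd, 5.54 ± 0.09 in p53 and 5.94 ± 0.20 in wt (SD, n = 3 each), close to the array medians of 5.32 to 5.401, where background can compress a difference.

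Glod4 (1428421_a_at) was at 10.32, 9.96 and 10.11 in double, 10.12, 10.15 and 10.68 in acd, 10.02, 10.08 and 10.11 in p53, and 11.002, 11.004 and 10.66 in wt. The p53 minus wt difference of -0.82 is a factor of 0.567. Double and p53 arrays all lay below wt, whereas acd replicate 3 lay just above wt replicate 3 and apart from the other acd arrays.

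Slfn9 (1436472_at) was at 6.78, 7.25 and 6.39 in double, 6.63, 6.22 and 7.09 in acd, 6.37, 6.32 and 6.34 in p53, and 7.53, 7.42 and 7.17 in wt. The p53 embryos lay close together (SD 0.03, n = 3), and p53 minus wt was -1.03, a factor of 0.490. Double and acd embryos were scattered between these levels. Double replicate 2 overlapped wt, and acd replicate 3 stayed just below it. Schlafen genes resemble each other in sequence, so how much of this signal comes from Slfn9 alone is uncertain.

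Tubd1 (1421748_a_at) was at 5.66, 5.46 and 5.48 in double, 5.76, 5.54 and 5.84 in acd, 5.35, 5.44 and 5.74 in p53, and 6.24, 6.26 and 5.84 in wt. No mutant array reached a wt array, but acd replicate 3 (5.8355) and wt replicate 3 (5.8437) all but met. The lowest mutant arrays lay close to the array medians of 5.32 to 5.401, where background can compress a difference.

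Cuedc1 (1451447_at) had the largest difference of all members. It was at 7.94, 8.16 and 8.28 in double, 8.14, 8.03 and 7.40 in acd, 8.26, 8.17 and 8.29 in p53, and 5.61, 5.35 and 7.31 in wt. The p53 minus wt difference was 2.15, a factor of 4.44. The wt embryos were split, with replicate 3 at 7.31 and so next to acd replicate 3 at 7.40, while the other two were far lower, and the wt SD of 1.06 was the widest of any member in any genotype.

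Scpep1 (1455908_a_at) was at 10.43, 10.44 and 10.498 in double, 10.39, 10.36 and 10.43 in acd, 10.21, 10.53 and 10.503 in p53, and 9.77, 9.88 and 10.12 in wt. All 9 mutant arrays were above all 3 wt arrays, the nearest being p53 replicate 1 and wt replicate 3.

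Rsad1 (1437449_at) was at 5.12, 6.30 and 5.27 in double, 5.41, 5.496 and 6.59 in acd, 5.69, 5.61 and 5.90 in p53, and 7.38, 7.39 and 6.64 in wt. The p53 minus wt difference of -1.40 is a factor of 0.379. The groups did not overlap, yet double replicate 2 and acd replicate 3 lay well above the other arrays of their genotypes, and acd replicate 3 lay just below wt replicate 3. Double replicates 1 and 3 lay below the array medians of 5.32 to 5.401, where background can compress a difference.

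Slc16a6 (1417884_at) departed from the other members. It was at 7.03, 6.69 and 6.77 in double, 6.75, 7.09 and 7.08 in acd, 6.75, 6.67 and 6.68 in p53, and 7.06, 7.09 and 7.01 in wt. The p53 and wt embryos were each narrow (SD 0.04, n = 3 each). The acd and double embryos were split between these levels, with acd replicates 2 and 3 and double replicate 1 inside the wt range and acd replicate 1 and double replicates 2 and 3 at p53 levels.

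**Figure D1:**
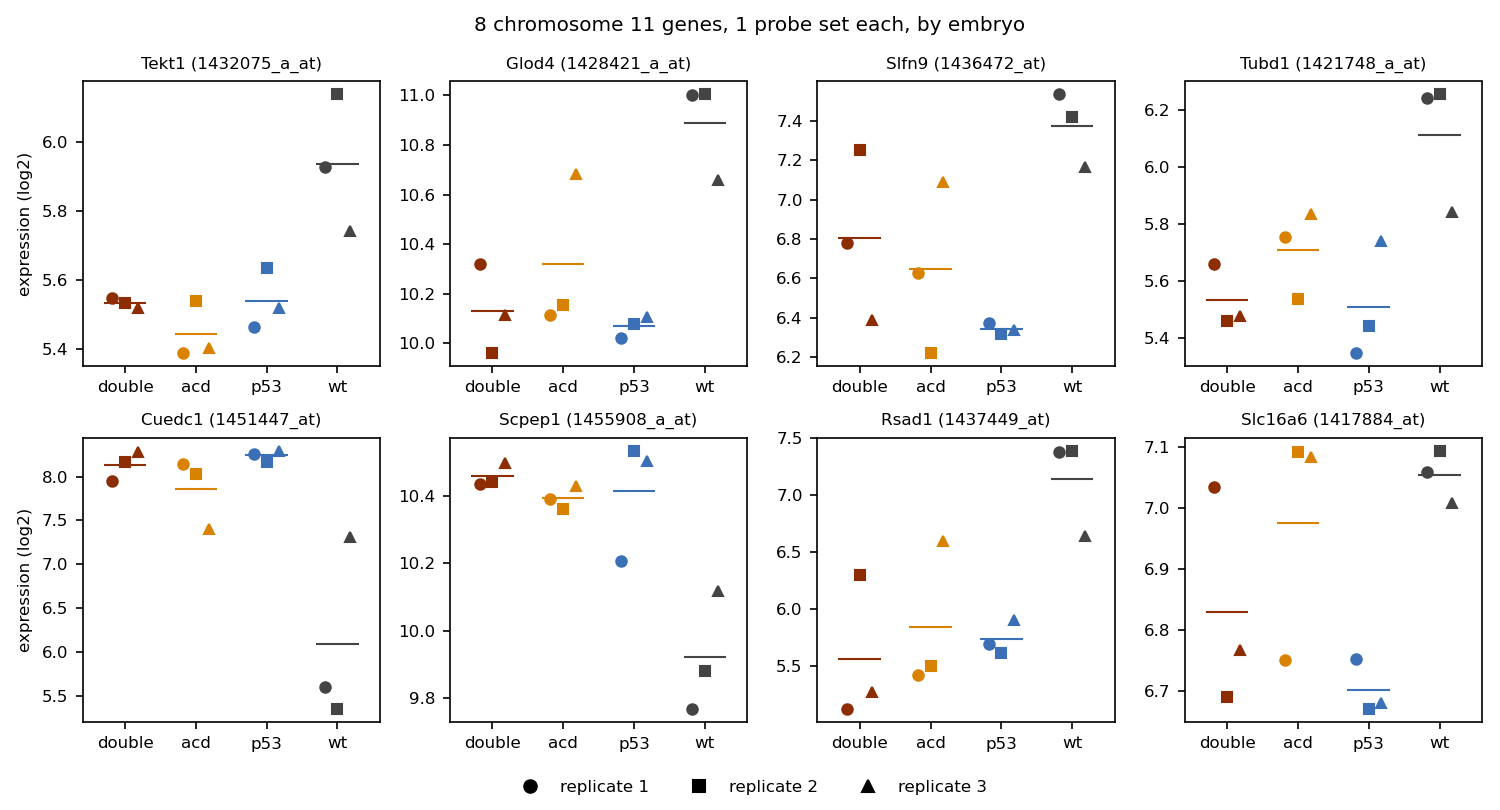
Log2 expression (vertical axis) of the probe set of each member with the largest p53 minus wt difference, with 1 point per embryo and a bar for the mean of each genotype. For Cuedc1 the wt embryos lie at 5.61, 5.35 and 7.31 and every other embryo at or above 7.40.

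In 8 of 8 members the wt embryo nearest to the p53 mean was replicate 3, as in 35.2% of all probe sets, a description of the wt and p53 values that chose the members. Among the 6 acd and double embryos, the one nearest to the wt mean was acd replicate 3 for 4 members (Glod4, Tubd1, Cuedc1 and Rsad1, against 18.3% of all probe sets), double replicate 1 for 2 (Tekt1 and Slc16a6), double replicate 2 for Slfn9 and acd replicate 2 for Scpep1. In the grid of centred values, wt replicates 1 and 2 lay farthest from the mean for every member but Slc16a6, where p53 replicates 2 and 3 did (-0.22 and -0.21). What sets wt replicate 3 and acd replicate 3 apart was not tested.

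**Figure D2:**
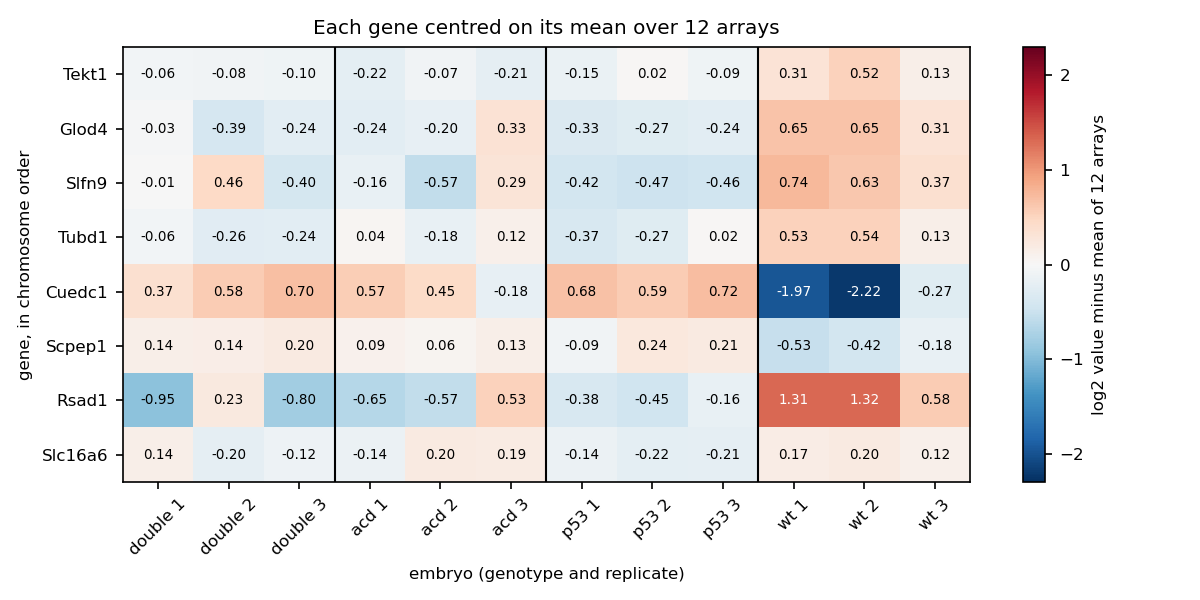
Log2 value of each member's leading probe set (rows, in chromosome order) in each embryo (columns), less the mean of that probe set over the 12 arrays, printed in each cell. Wt replicates 1 and 2 stand at -1.97 and -2.22 for Cuedc1 and at 1.31 and 1.32 for Rsad1, while wt replicate 3 stands at -0.27 and 0.58.

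The comparison of double with acd embryos asks what loss of p53 does when Acd is already mutant, and it shares no array with the contrast that picked the genes. It was fitted with limma on all 45037 probe sets, with a mean per genotype over all 12 arrays and Benjamini-Hochberg adjustment. The spread behind its intervals and p-values was therefore estimated with the wt and p53 arrays too. None of the 14 member probe sets passed an adjusted p of 0.05, and 0 had an unadjusted p under 0.05, against 0% and 9.24% of all probe sets. The differences ran from -0.28 to 0.27, and adjusted p-values from 0.635 to 0.992. One probe set, 1455908_a_at of Scpep1, had groups that did not overlap (0.06 higher in double), against 10.6% of all probe sets.

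For most members the interval of double minus acd left out a difference as large as that between p53 and wt. Cuedc1 differed by 0.27 (95% interval -0.57 to 1.12), against 2.15 in p53 minus wt. Rsad1 differed by -0.28 (-1.03 to 0.48), against -1.40. Slfn9 differed by 0.16 (-0.32 to 0.65) against -1.03, Glod4 by -0.19 (-0.52 to 0.14) against -0.82, Tubd1 by -0.18 (-0.47 to 0.12) against -0.60, Tekt1 by 0.09 (-0.13 to 0.30) against -0.40, and Scpep1 by 0.06 (-0.17 to 0.29) against 0.49. For Slc16a6 the interval around -0.14 (-0.38 to 0.09) took in the -0.35 of p53 minus wt. The p53 minus wt values were chosen for their size, so the difference between the 2 contrasts was not tested. With double mutant replicates 1 and 2 left out, double minus acd was 0.42 for Cuedc1, -0.57 for Rsad1 and -0.26 for Slfn9, a turned sign, with 1 double array assumed to vary like the other genotypes and adjusted p-values from 0.844 to 0.952. For Rsad1 it was 0.10 (adjusted p = 0.973) without acd replicate 3, and it ran from -0.64 to 0.10 over the 12 arrays left out in turn.

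The comparison of acd with wt asks whether embryos that carry no named p53 mutation share the shift. It uses the wt arrays that helped to pick the genes, so counts and p-values here are not independent of the choice. By the leading probe sets, the acd mean lay on the p53 side of wt by at least 0.40 in 7 of the 8 members. Acd minus wt was 1.77 ± 0.39 (SE) for Cuedc1, -1.30 ± 0.35 for Rsad1, -0.73 ± 0.22 for Slfn9, -0.57 ± 0.15 for Glod4, -0.49 ± 0.10 for Tekt1, 0.47 ± 0.11 for Scpep1 and -0.40 ± 0.14 for Tubd1. Slc16a6 was the exception, at -0.08 ± 0.11 (95% interval -0.32 to 0.16).

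None of the 14 probe sets passed after adjustment over all probe sets in acd against wt (limma, adjusted p = 1 for each), where 0.00444% of all probe sets did. At an unadjusted p under 0.05 stood 8 of 14, against 2.29% of all probe sets. In 7 of 14 the groups did not overlap, against 13.7% of all. The call for Cuedc1 turned on 1 embryo, since without wt replicate 3 its probe set 1451447_at passed at 2.38 (limma, adjusted p = 0.00316). Over the 12 arrays left out in turn its adjusted p ran from 0.00316 to 1, and over 11 other settings from 0.365 to 1. Over the same arrays left out, acd minus wt ran from -1.68 to -1.09 for Rsad1, -0.95 to -0.52 for Slfn9 and -0.75 to -0.47 for Glod4, the lowest of each without acd replicate 3. All acd embryos and 1 of 3 wt embryos were male by their Y-linked genes. With sex as a term, acd minus wt was 2.10 for Cuedc1, -1.20 for Rsad1, -0.79 for Slfn9, -0.72 for Glod4, -0.53 for Tubd1, -0.50 for Tekt1, 0.56 for Scpep1 and -0.18 for Slc16a6 (limma, adjusted p = 0.943 for each).

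The double embryos stood likewise away from wt by the leading probe sets, in a comparison that again uses the wt arrays of the choice. Double minus wt was 2.04 ± 0.39 for Cuedc1, -1.58 ± 0.35 for Rsad1, -0.76 ± 0.15 for Glod4, -0.58 ± 0.14 for Tubd1, -0.57 ± 0.22 for Slfn9, 0.53 ± 0.11 for Scpep1, -0.40 ± 0.10 for Tekt1 and -0.22 ± 0.11 for Slc16a6 (SE). None of the 14 passed (limma, adjusted p from 0.539 to 0.903), where 0.00222% of all probe sets did, 8 of 14 had an unadjusted p under 0.05, against 8.53% of all, and the groups did not overlap in 7 of 14, against 11.8% of all.

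Calls in double against wt depended on single arrays. Without double replicate 3, Cuedc1 1451447_at (1.96, adjusted p = 0.0317), Glod4 1428421_a_at (-0.75, adjusted p = 0.0364) and Scpep1 1455908_a_at (0.52, adjusted p = 0.0365) passed the limma test, in a fit that then called 1939 of all probe sets. Without wt replicate 3, Cuedc1 passed at 2.65 (adjusted p = 0.00153). Their highest adjusted p was 0.898 with an array left out, and the other settings gave 0.139 to 0.854 for Cuedc1, 0.0952 to 0.854 for Glod4 and 0.119 to 0.854 for Scpep1. With both double mutant replicates 1 and 2 left out, the differences were 2.19 for Cuedc1, -1.87 for Rsad1, -0.99 for Slfn9, -0.78 for Glod4, -0.63 for Tubd1, 0.57 for Scpep1, -0.42 for Tekt1 and -0.29 for Slc16a6, from 1 double array against the wt arrays of the choice.

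Double was set against p53 as well. None of the 14 probe sets passed in double against p53, a comparison that shares the p53 arrays with the choice (limma, adjusted p from 0.629 to 0.989), where 0.00222% of all probe sets did, and 0 had an unadjusted p under 0.05, against 7.97% of all. The groups did not overlap in 1 of 14, Slfn9 1436472_at, against 7.97% of all. It was 0.46 higher in double (95% interval -0.02 to 0.95), and 0.04 higher with double replicates 1 and 2 left out. The other 7 leading probe sets differed by -0.18 (Rsad1) to 0.13 (Slc16a6), with wide 95% intervals for Cuedc1 (-0.96 to 0.73) and Rsad1 (-0.93 to 0.58).

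In the p53 minus wt contrast that picked the genes, the groups did not overlap in 10 of 14 probe sets, where 7.67% of all probe sets did not overlap. Set against all 9 mutant arrays, the 3 wt arrays stood apart in 6 of 14 member probe sets, belonging to 5 genes (Cuedc1, Rsad1, Scpep1, Tekt1 and Tubd1). Over the whole table this held for 0.639% of probe sets. The wt and p53 arrays of this count also chose the members.

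In the 4 members that have several probe sets, p53 minus wt differed between the probe sets of a gene. Cuedc1 has 3. Beside 1451447_at, probe set 1435358_at read 7.89, 7.95 and 8.14 in double, 7.98, 7.92 and 7.85 in acd, 8.01, 8.21 and 8.10 in p53, and 7.64, 7.57 and 7.77 in wt. It moved in the same direction, with every mutant array above every wt array, but by 0.45 in p53 minus wt where 1451447_at moved by 2.15. The third, 1425920_at, was 0.16 higher in p53 than in wt with overlapping groups, and below the array medians in all embryos at 4.45 to 4.88.

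Rsad1 has 3 probe sets as well. Both others, 1420321_at and 1440875_a_at, lay between 3.28 and 3.93 in all 12 embryos, below the array medians, and differed by 0.09 and 0.05 between p53 and wt with overlapping groups. At such levels background can compress a difference, and a lower level of Rsad1 was read with 1437449_at alone. The second Slfn9 probe set, 1458803_at, lay between 4.14 and 4.59 and was 0.22 lower in p53 than in wt. These 3 dim probe sets did not pass a filter at the 40th percentile of each array, which 11 of the 14 passed.

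The second Scpep1 probe set was not dim. It (1426555_at) read 8.47, 8.24 and 8.49 in double, 8.47, 8.42 and 8.32 in acd, 8.35, 8.04 and 8.45 in p53, and 8.23, 8.33 and 8.28 in wt. The genotypes overlapped, and p53 minus wt was -0.0007 where the other Scpep1 probe set was at 0.49.

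**Figure D3:**
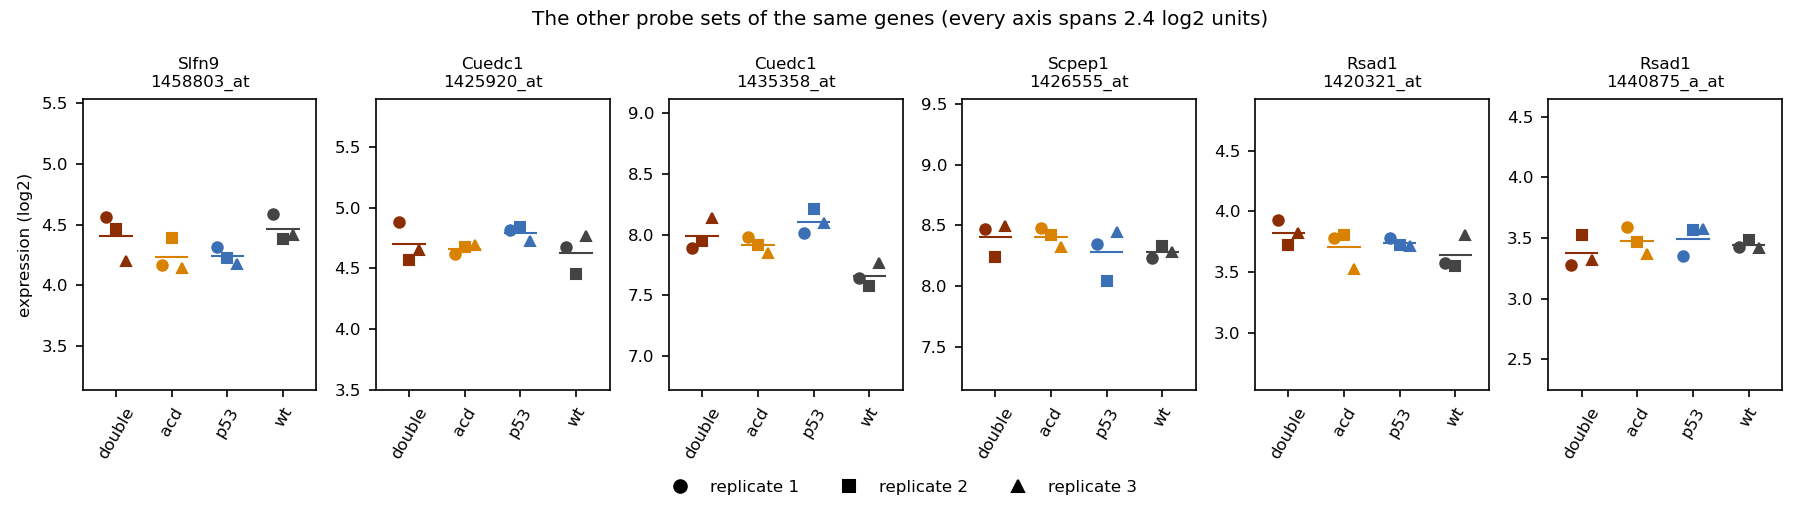
Log2 expression (vertical axis) of the further probe sets, beside the leading one, of the 4 members with several, with 1 point per embryo by genotype. The 2 further Rsad1 probe sets stay between 3.28 and 3.93 in every embryo. The leading one, 1437449_at, spans 5.12 to 7.39 in the plot of leading probe sets.

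Disagreement was tested as the difference between 2 probe sets of a gene within each array, over 30372 pairs from all genes with several. Levels of different probe sets cannot be compared, so only the change of this difference between genotypes is read. Among the 8 member pairs, 0 passed in double against acd and 0 had an unadjusted p under 0.05 (limma, adjusted p from 0.754 to 0.994), against 0% and 7.45% of all pairs. The 2 genotypes of this comparison share no array with the choice, but its spread was estimated over all 12 arrays.

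The largest changes were in Cuedc1. 1435358_at minus 1451447_at was -0.05, -0.21 and -0.14 in double, -0.16, -0.11 and 0.45 in acd, -0.24, 0.04 and -0.20 in p53, and 2.03, 2.22 and 0.46 in wt. The change was -1.70 in p53 minus wt, -1.51 ± 0.36 (SE) in acd minus wt and -1.71 ± 0.36 in double minus wt, with the difference highest in wt replicates 1 and 2, next in wt replicate 3 and acd replicate 3, and lowest in the other embryos. 1425920_at minus 1451447_at changed by -1.99 in p53 minus wt, -1.74 ± 0.37 in acd minus wt and -1.97 ± 0.37 in double minus wt.

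No member pair passed against wt (limma, adjusted p = 1 for each in acd, from 0.389 to 0.664 in double, against 0% of all pairs in each comparison), with the wt arrays shared with the choice. An unadjusted p under 0.05 was reached by 5 of 8 in each, against 2.82% of all pairs in acd and 8.52% in double. In each these were the Cuedc1 pairs with 1451447_at, the Rsad1 pairs with 1437449_at and the Scpep1 pair. Pairs that share a probe set are not independent, so the count is not one of genes. Without wt replicate 3 the Cuedc1 pair of 1435358_at and 1451447_at passed in acd against wt (-2.07, adjusted p = 0.00615) and in double against wt (-2.26, adjusted p = 0.00249). The pair of 1425920_at and 1451447_at passed there too (-2.28, adjusted p = 0.0176 in acd and -2.51, adjusted p = 0.00688 in double). No other array left out gave a call for any member pair.

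Scpep1 1426555_at minus 1455908_a_at changed by -0.49 in p53 minus wt, -0.34 ± 0.15 in acd minus wt and -0.41 ± 0.15 in double minus wt. Rsad1 1437449_at minus 1440875_a_at changed by -1.45, -1.34 ± 0.35 and -1.51 ± 0.35 in the same comparisons, and Slfn9 1436472_at minus 1458803_at by -0.81, -0.50 ± 0.24 and -0.51 ± 0.24. Glod4, Slc16a6, Tekt1 and Tubd1 have 1 probe set each, so no such check was possible for them.

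Most neighbours of the members did not differ between p53 and wt by as much as the members. The members were chosen for this difference and are read by the probe set where it was largest. Their excess over the neighbours therefore follows from the choice and is a description. Over the 3 measured genes on each side of each member, 47 genes in all by their brightest probe sets, the median size of p53 minus wt was 0.07 log2 units, against 0.05 over all genes. One of 47 passed 0.5, Ccdc182 at -0.53, which lies between Cuedc1 and Scpep1. Over every probe set of these genes, a second Ccdc182 probe set (-1.02) and 1 of Msi2 (1435521_at, -1.03) passed 0.5 as well, 3 of 103 in all. Over the whole table Scpep1 1455908_a_at, at 0.49, ranked 112 by the size of p53 minus wt. Fewer than 112 of all 45037 probe sets thus passed 0.5, a smaller share than among the neighbours. Msi2, which encodes an RNA-binding protein and also lies between Cuedc1 and Scpep1, read 5.90, 7.41 and 6.995 in double, 6.66, 6.32 and 7.62 in acd, 6.64, 6.63 and 6.48 in p53, and 7.50, 8.07 and 7.28 in wt with this probe set. Its double replicate 2 and acd replicate 3 lay inside the wt range. Ccdc182 and Msi2 were named after their values were seen.

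**Figure D4:**
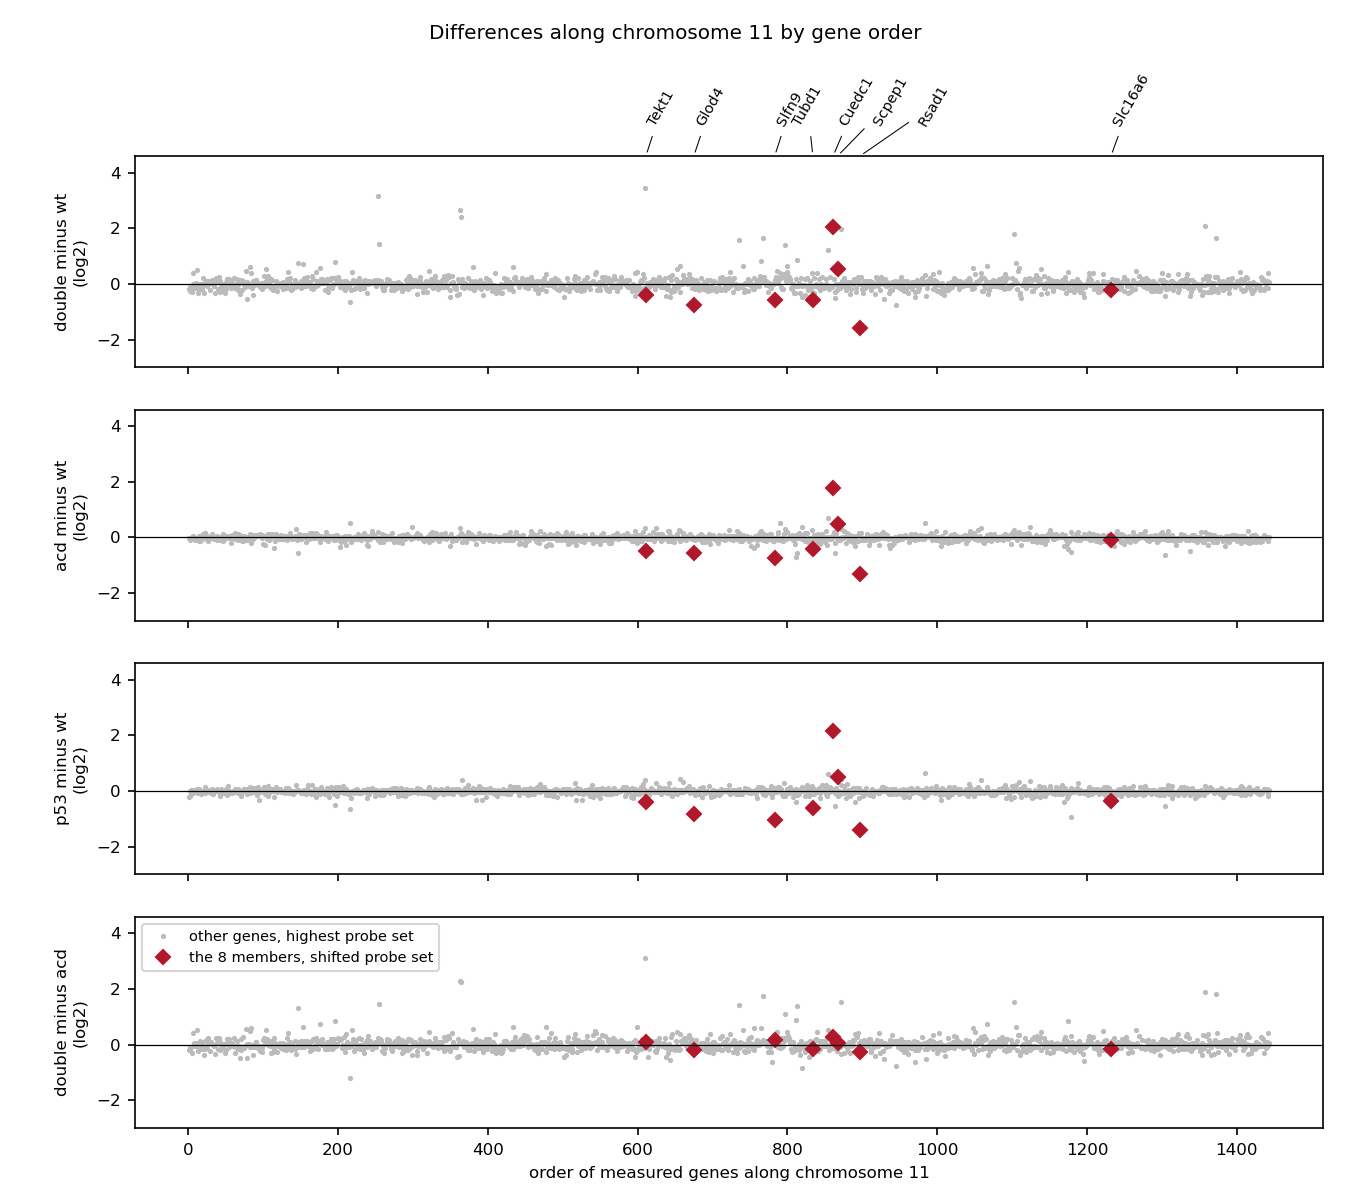
Difference in log2 expression (vertical axes) of each measured chromosome 11 gene by its order along the chromosome (horizontal axis), in double minus wt, acd minus wt, p53 minus wt and double minus acd. Diamonds are the 8 members by their shifted probe set, picked for p53 minus wt, and grey points the other genes by their brightest. On the panels against wt Cuedc1 lies at 2.04, 1.77 and 2.15 and Slc16a6 at -0.22, -0.08 and -0.35, and all 8 lie between -0.28 and 0.27 in double minus acd.

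The nearest measured genes were Xaf1 and Smtnl2 beside Tekt1, Dbil5 and Mrm3 beside Glod4, Slfn5 and Slfn8 beside Slfn9, and Rnft1 and Vmp1 beside Tubd1. Further along they were Vezf1 and Mrps23 beside Cuedc1, 4930556N13Rik and Elobl beside Scpep1, Mycbpap and Acsf2 beside Rsad1, and Amz2 and Arsg beside Slc16a6. Of the 47, only Xaf1, an interferon-inducible gene, had all wt arrays apart from all mutant arrays. It read 9.09, 8.82 and 4.20 in double, 4.39, 4.13 and 4.21 in acd, 4.34, 4.28 and 4.25 in p53, and 3.84, 3.81 and 4.07 in wt. Its double replicates 1 and 2 were high with the interferon list, which the leading probe set of Tekt1, its neighbour, was not.

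Chromosome 11 held more such probe sets than the members alone. Of the probe sets that differed by at least 0.5 between p53 and wt with groups that did not overlap, 18 of 29 (62.1%) lay on chromosome 11, which holds 7.84% of the 34735 probe sets with a chromosome. These came from 16 genes, 5 of them members. The members were picked on chromosome 11 with this same contrast, so this share is a description. In double minus acd, which shares no array with that contrast, 21 of 201 (10.4%) lay on chromosome 11, and 0 were member probe sets. In acd minus wt it was 11 of 40 (27.5%), and in double minus wt 35 of 226 (15.5%), both sharing the wt arrays.

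With all 9 mutant arrays set against the 3 wt arrays, a comparison added after the data were seen, 8 of 11 (72.7%) such probe sets lay on chromosome 11. They read Xaf1, Taf15, Tubd1, Gdpd1, Cuedc1, Trim25 (by 2 probe sets) and Rsad1. The wt and p53 arrays of this count also chose Tubd1, Cuedc1 and Rsad1. Double replicates 1 and 2 read 9.09 and 8.82 for Xaf1, and 10.52 and 10.23 or 9.50 and 9.28 for Trim25. These values were far above every other array, as were those of Trim34a and Irf9 on other chromosomes. In the other mutant arrays Xaf1 read 4.13 to 4.39, against 3.81 to 4.07 in wt. How much of the count rests on double replicates 1 and 2 was not tested. Gdpd1, which encodes a phosphodiesterase of lysophospholipids and lies between Tubd1 and Cuedc1, was at 7.67, 7.36 and 6.91 in double, 6.83, 6.71 and 7.81 in acd, 6.82, 6.66 and 6.59 in p53, and 8.84, 8.64 and 8.11 in wt. Taf15, an RNA-binding protein of the FET family, was at 3.94, 5.25 and 5.58 in double, 4.74, 5.32 and 6.04 in acd, 5.56, 4.997 and 4.59 in p53, and 7.27, 7.29 and 6.20 in wt. In both genes the wt and mutant embryos nearest to each other were wt replicate 3 and acd replicate 3, as in Cuedc1, Rsad1 and Tubd1. Taf15 and Gdpd1 were named after their values were seen.

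Other genes differed in the same direction in both contrasts on p53. Ccng1, a chromosome 11 gene whose transcription p53 activates, was at 6.08, 6.15 and 5.85 in double, 6.30, 7.81 and 8.06 in acd, 5.77, 5.73 and 6.03 in p53, and 6.83, 6.75 and 6.29 in wt (1450017_at). It was at -1.36 in double minus acd (adjusted p = 0.510) and at -0.78 in p53 minus wt. Ndel1, also on chromosome 11, was at -0.77 and -1.04 in the same contrasts, and Eda2r, an X-linked p53 target, at -1.45 and -0.53. Of the 34945 probe sets with 1 gene symbol, 156 had groups that did not overlap and moved the same way in both contrasts. Of these, 21 lay on chromosome 11, which holds 7.84% of the probe sets with a chromosome. Of the 14 member probe sets, 1 was among them, Scpep1 1455908_a_at, at 0.06 in double minus acd. The p53 minus wt contrast, which enters this count, chose the members.

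The genes whose levels were most like the members over the 12 arrays lay mostly on the same chromosome. Likeness was Pearson's r over 12 arrays among probe sets with an SD of at least 0.2. It is given as a description, since 4 genotypes and the arrays are shared, among them the wt and p53 arrays that chose the members. Glod4 was most like Gdpd1 (0.93) and Tubd1 (0.92), Slfn9 most like Gdpd1 (0.92) and Rsad1 (0.85), and Cuedc1 most like Scpep1 (0.90) and Lsm12 (0.87). Rsad1 was most like Msl1 (0.88) and Smarce1 (0.88), and Tekt1 most like Luc7l3 (0.77) and Glod4 (0.76). All of these lie on chromosome 11, which holds 7.84% of all probe sets with a chromosome. Its share among the probe sets with an SD of at least 0.2, the ones searched, is not given here. Tubd1, Rsad1, Scpep1 and Glod4 are members themselves, so their chromosome and part of their likeness follow from the choice. Scpep1 had Cpa1 of chromosome 6 (0.86) after Cuedc1, and Slc16a6 had Etfbkmt of chromosome 6 (0.84) and Cpt1c of chromosome 7 (0.83).

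Genes of the same families as the members were listed as well. Of the 75 measured, members included, none passed in any comparison (limma). An unadjusted p under 0.05 was reached by 9 in double against acd (9.24% of all probe sets) and 6 in double against p53 (7.97%). It was reached by 8 in acd against wt (2.29%) and 17 in double against wt (8.53%). Both counts against wt include Cuedc1, Glod4, Rsad1, Scpep1, Slfn9, Tekt1 and Tubd1, which were chosen with the wt arrays. In acd against wt each of the 8 lists held 1 such gene, the member itself except among the Slc16 transporters. These 2 counts are therefore not a result about the families. In double minus acd the medians were -0.02 for 9 CUE domain genes, -0.03 for 8 glyoxalase fold genes, -0.10 for 8 radical SAM genes, 0.08 for 3 serine carboxypeptidase genes, 0.02 for 13 Slc16 transporters, -0.02 for 20 tektin and motile cilium genes and -0.06 for 6 delta, epsilon and gamma tubulin genes, against -0.003 over all genes. Schlafen genes had a median of 0.15, with 7 of 8 higher in double, Slfn2 at 0.46 ± 0.17 (SE, adjusted p = 0.510) and Slfn3 at 0.24 ± 0.09 (adjusted p = 0.511). Their mean per array was 4.69, 4.53 and 4.32 in double, 4.28 to 4.41 in acd, 4.30 to 4.39 in p53 and 4.38 to 4.47 in wt, highest in double replicates 1 and 2, where the interferon list is high. Its part in the Schlafen values was not tested. Rsad2, an interferon-induced relative of Rsad1, was at 2.71 ± 0.71 in double minus acd (adjusted p = 0.510). In acd minus wt the same lists had medians of -0.06 to 0.04, and in p53 minus wt of -0.04 to 0.06.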

How the data were processed

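Whole-embryo RNA was labelled from 250 ng total RNA and hybridised to 1 array per embryo, per the labels' protocols. The deposited values were taken as log2, the scale that RMA gives, since the sources used here do not name the log base. Background correction, quantile normalization and probe summary were done by the authors with justRMA, and genes were selected with BRB-Array tools 4.4.0, per the series' design text. The values were used as deposited. Of 45101 probe sets, 64 were controls and 45037 were tested. The platform annotation gave 1 symbol for 34945 of them and several for 932, and did not list 9160. Of those with 1 symbol, 34741 matched the RefSeq table of GRCm38.p6, used for gene order and promoter windows.

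Genotype and replicate number came from the sample titles. A mean per genotype was fitted with limma 3.58.1 (R 4.3.3, statmod 1.5.0) to all 12 arrays, with 8 residual degrees of freedom, moderated variances (eBayes), and two-sided p-values were adjusted by Benjamini-Hochberg over all probe sets, with a threshold of 0.05. Pairs of probe sets of a gene were fitted the same way on their difference within each array. Intervals are 95% intervals of that fit. Precision is limited by having 3 embryos a genotype, and no signal over background was given. The test was tried on simulated data for double against acd over 45037 probe sets. It recovered 91 of 100 changes of 1 log2 unit and 99 of 100 of 2, with 9 false calls. Over 30372 pairs it recovered 80 and 99 of 100 with 7 false calls. The simulated noise was independent, with the same SD in every genotype, and smaller changes were not tried. In the data double replicates 1 and 2 were unlike the rest, and Rsad2, at 2.71 in double minus acd, was not called (limma, adjusted p = 0.510). The simulated recovery therefore cannot be carried over to these data.

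Genes named beside the members follow a rule: the nearest measured gene on each side, the 2 most alike over the arrays, up to 10 that moved the same way in p53 minus wt and in double minus acd, and the 2 of each family list with the smallest p. Other names were chosen after their values were seen. The members, the lists and the tests were chosen with earlier results of these data known. Alternatives were filters at the 40th and 60th percentile, 1 probe set per gene, other variance models, array weights, other normalizations, only the genotypes compared, a replicate block, sex as a term, and leaving out arrays. Same-numbered embryos deviated from their genotype means with correlations of -0.15 to 0.30, above 0.1 in 5 of 18 cases, so the numbers were not taken to pair embryos. The p53 transcript was not analysed here.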

Additional observations from a re-analysis of the deposited data

How the results depend on the processing

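With 3 embryos per genotype and no signal over background, small or dim differences could not be resolved, and the counts of calls rest on single arrays. Over the member probe sets, 1343 of the values recomputed under the alternatives kept their direction and their side of the threshold, and 48 changed sign, none of which was called in either setting. With 1 array left out, 5 gained a call and are named above.

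The values that changed sign outside the leave-one-out settings were as follows. With array weights, double against acd gave -0.043 for Cuedc1 1425920_at and 0.14 for Rsad1 1437449_at, double against wt gave -0.0013 for Cuedc1 1425920_at and 0.011 for Rsad1 1440875_a_at and double against p53 gave -0.038 for Glod4, -0.024 for Tubd1 and 0.21 for Rsad1 1437449_at. After a second quantile normalization, double against acd gave 0.017 for Scpep1 1426555_at and p53 against wt gave 0.0035 for Scpep1 1426555_at. With sex as a term, double against acd gave -0.062 for Cuedc1 1451447_at, 0.0026 for Scpep1 1426555_at and -0.024 for Scpep1 1455908_a_at, acd against wt gave -0.084 for Cuedc1 1425920_at and double against p53 gave 0.021 for Cuedc1 1425920_at and -0.046 for Scpep1 1455908_a_at. With double replicates 1 and 2 left out, double against acd gave -0.26 for Slfn9 1436472_at, -0.034 for Slfn9 1458803_at, -0.0069 for Cuedc1 1425920_at and 0.088 for Scpep1 1426555_at and double against p53 gave -0.039 for Slfn9 1458803_at, -0.031 for Tubd1, 0.028 for Cuedc1 1435358_at and 0.038 for Cuedc1 1451447_at. With arrays left out in turn, double against wt ranged over -0.13 to 0.052 for Slfn9 1458803_at and -0.020 to 0.14 for Cuedc1 1425920_at. Likewise, acd against wt ranged over -0.059 to 0.10 for Cuedc1 1425920_at, -0.024 to 0.087 for Rsad1 1440875_a_at and -0.14 to 0.034 for Slc16a6. Likewise, p53 against wt ranged over -0.086 to 0.12 for Scpep1 1426555_at. Likewise, double against p53 ranged over -0.058 to 0.14 for Tubd1, -0.060 to 0.10 for Scpep1 1455908_a_at, -0.044 to 0.040 for Tekt1, -0.031 to 0.15 for Glod4 and -0.54 to 0.045 for Rsad1 1437449_at. Likewise, double against acd ranged over -0.053 to 0.074 for Scpep1 1426555_at, -0.062 to 0.38 for Slfn9 1436472_at, -0.64 to 0.10 for Rsad1 1437449_at and -0.050 to 0.11 for Cuedc1 1425920_at. The cause was not tested.

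Probe sets called over the whole table numbered 0 in double against acd (4160 at an unadjusted p under 0.05), 2 in acd against wt, 1 in double against wt and 1 in double against p53. In acd against wt 1 was called with a variance trend, a second quantile normalization, sex as a term or the replicate block. With the replicate block double against acd still had 0 calls among probe sets and pairs. With only the genotypes compared, double against wt and double against p53 had 0. With double replicates 1 and 2 left out, 28, 26 and 28 were called in double against acd, wt and p53. The counts over single arrays left out ran from 0 to 2235 in double against acd, 1 to 4 in acd against wt, 1 to 1939 in double against wt and 1 to 1934 in double against p53, with the highest counts of the double comparisons without double replicate 3. Pairs ran from 0 to 170, 0 to 2 and 0 to 162 in double against acd, acd against wt and double against wt. On chromosome 11, p53 against wt gave 43 probe sets at a size of 0.3 and 8 at 1, double against acd 91 and 6, and 0 moved the same way in both at 1.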

Other observations

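Probe sets that the annotation assigns to several genes were kept out of the members. One of them, 1433622_at, is shared by Glod4, Gemin4 and Gm6330. It read 7.87, 8.10 and 8.56 in double embryos, 8.41, 8.49 and 8.52 in acd, 8.30, 8.17 and 8.46 in p53, and 8.54, 8.43 and 8.40 in wt, so it did not show the separation from wt seen with the Glod4 probe set, and the lowest values were those of double replicates 1 and 2. Another, 1453808_at, is shared by Cuedc1 and 2210416O15Rik and stayed between 6.06 and 6.28 in all 12 embryos. In both, the part of each gene in the signal cannot be told apart.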
